A study of Drosophila melanogaster with 6 samples.

Results

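Genes classed by name as secreted serine proteases of the larval midgut were followed from wt to CG1603PBac larvae. The genes were taken by a rule on their names, which was set with earlier results of these data known. They are the Jonah genes (symbols that begin with Jon and a number) with yip7, the trypsin genes named by Greek letters with Try29F, and the Ser genes (Ser and a number). The rule gave 33 of the 16727 genes in the files, 17 Jonah genes including yip7, 12 trypsin genes and 4 Ser genes.

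Libraries of poly(A) RNA were made from larvae 48 hr after egg laying, 3 from wt and 3 from CG1603PBac larvae, and the labels call them biological replicates. CG1603 encodes a C2H2 zinc finger protein, and CG1603PBac is an insertion of the PiggyBac transgene PBac[SAstopDsRed]LL06826, with splice sites and stop codons, in an intron of that gene. Homozygous larvae, picked by the absence of a GFP-marked CyO balancer, stop growing at the second instar and die. A single insertion allele was compared, which had been backcrossed to a w mutant stock, and the labels name no other allele in wt. RNA came from larvae as a whole, so fewer midgut cells and less RNA per midgut cell cannot be told apart.

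Digestive serine proteases are made by enterocytes, the absorptive cells of the midgut, as inactive precursors and are secreted into the lumen, where they cut the proteins of the food. Trypsins cut after lysine and arginine. Jonah proteases resemble chymotrypsins and elastases and were first described as a family of genes expressed in the larval gut. In flies these enzymes are known to respond to diet, with sugar acting through the Activin ligand Dawdle and through the Mondo transcription factor and its partners to repress digestive enzyme genes.

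Gene counts ran from 27100927 to 36016914 per library. The genotypes differed in their libraries as well as in single genes. The share of reads left without an alignment was 8.77 ± 0.354% for wt but 31.4 ± 0.445% for the mutant (SD, n = 3). The TMM factors rescale a library by a trimmed mean of the log ratios of its genes to a reference library. They ran from 0.864 to 0.887 in wt and from 1.14 to 1.15 in CG1603PBac libraries. The method assumes that most genes do not change, whereas 69.7% of the genes tested were called different with it. The levels and fold changes below rest on that assumption. Levels below are CPM, counts scaled to library size with these factors. CG1603 itself had a level of 18.9 ± 1.70 CPM in wt against 28.1 ± 2.40 CPM in the mutant (SD, n = 3), at a log2 fold change of 0.57 (SE 0.13), and because a count over the whole gene does not see the insertion, it is no check of the labels.

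As a group the proteases were a large part of the larval message pool and a smaller one in the mutant. The 33 genes held 2.99%, 2.89% and 2.79% of all gene counts in wt replicates 1 to 3, against 1.77%, 1.73% and 1.76% in CG1603PBac replicates 1 to 3, with 95% Wilson half-widths of at most 0.00568 percentage points, which cover counting error only. The 2 sets of libraries did not overlap. The means were 2.89 ± 0.100% and 1.75 ± 0.0226% (SD, n = 3), a ratio of 1.65. Summed as CPM the genes stood at 33130 ± 1600 in wt and 15274 ± 230 in the mutant (SD, n = 3), a ratio of 2.17. The 2 ratios differ because the share divides by the raw total of gene counts and the CPM by the TMM-scaled total.

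Jonah genes made up most of the group in both genotypes. The Jonah genes held 89.5 ± 0.264% of the counts of the 33 genes in wt and 88.9 ± 0.0780% in the mutant (SD, n = 3). The trypsin genes held 10.2 ± 0.258% and 11.0 ± 0.0787%, and the Ser genes 0.211 ± 0.0218% and 0.121 ± 0.0214%. The 5 Jon99 genes on chromosome 3R alone held 48.5 ± 0.274% in wt and 44.1 ± 0.579% in the mutant.

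**Figure D1:**
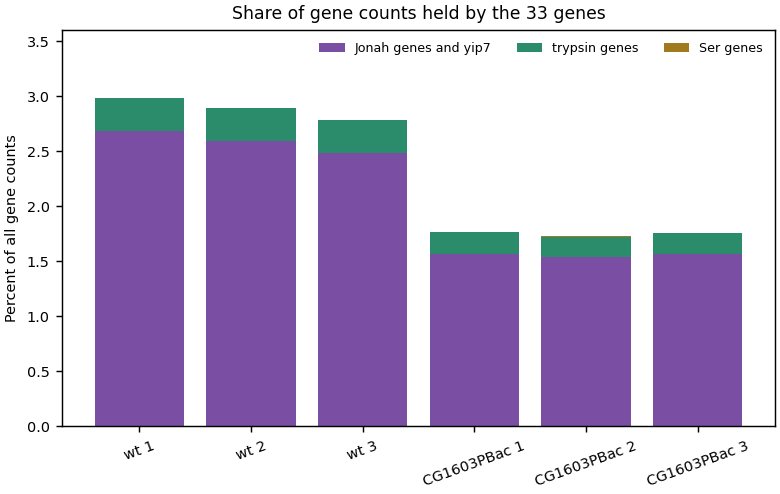
Percent of all gene counts held by the Jonah genes with yip7, the trypsin genes and the Ser genes (stacked bars) in each of the 6 libraries. The 3 wt bars reach 2.79 to 2.99% and the 3 CG1603PBac bars 1.73 to 1.77%, and Jonah genes make up most of every bar.

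Of the 33 genes, 29 passed the filter on low counts, and in CG1603PBac larvae 21 of these were lower, 3 were higher and 5 missed the threshold of 0.05 on the adjusted p of edgeR. Over all 11306 genes tested, 34.9% were lower, 34.8% were higher and 69.7% were either. The share of lower genes among the tested proteases was 72.4%. Lower by more than 2-fold were 15 of the 29 tested proteases, against 15% of all genes. Higher by more than 2-fold were 3 of the 29, against 17% of all genes. The median log2 fold change of the 29 was −1.20, beside 0.06 over all genes. In 22 of the 29 genes every CG1603PBac library lay below every wt library, beside 36.3% of all genes. In 4 of the 29 every one lay above, beside 37.5% of all genes. In either direction 73.8% of all genes did not overlap. With scaling by library totals alone, which moves the median of all genes up by 0.39, 19 of the 29 proteases were lower and 7 higher. Beside them 22.9% of all genes were lower and 50.1% higher. With scaling by all sequenced reads, aligned or not, 24 of the 29 were lower and 3 higher, beside 39.4% and 29.7% of all genes.

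**Figure D2:**
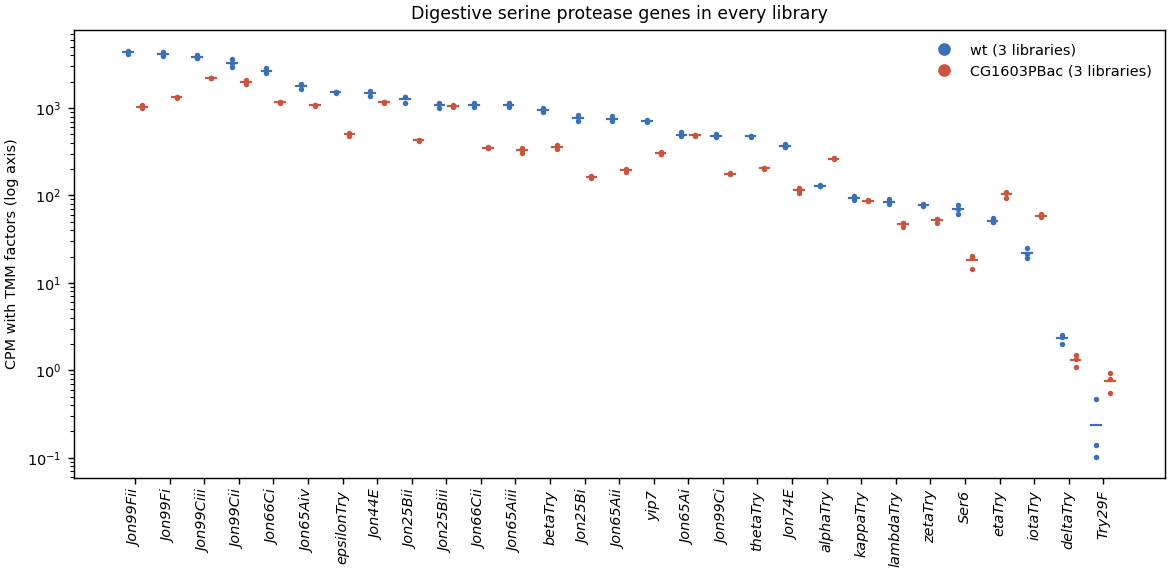
CPM with TMM factors (log axis) of the 29 tested protease genes in each of the 3 wt and 3 CG1603PBac libraries, 1 point per library. The points of the genotypes are apart for most genes, with CG1603PBac below wt in 22 genes and above it in 4.

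Most Jonah genes fell. All 17 passed the filter, 15 were lower (88.2%), 11 of them by over 2-fold, none was higher, and Jon25Biii and Jon65Ai did not pass. Over all genes tested 34.9% were lower, 15% were lower by over 2-fold and 34.8% were higher. The median log2 fold change of the Jonah genes was −1.46. The 5 genes on 3R, among them the 3 with the highest levels per kilobase of exon in wt, lie in 2 clusters of dm6, Jon99Ciii, Jon99Cii and Jon99Ci between 29922216 and 29926189 and Jon99Fii and Jon99Fi between 30487016 and 30489895.

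Jon99Fii had the highest level of all 33 genes in wt and ranked at place 24 among all genes of the files. It stood at 4547, 4375 and 4186 CPM in wt and 1034, 1011 and 1072 CPM in the mutant. Every mutant library was below the lowest wt library, and the log2 fold change was −2.07 (SE 0.04, edgeR adjusted p = 1.02e-20). Jon99Fi, which lies 1034 bases away on the other strand, had 4344, 4017 and 3948 CPM in wt and 1344, 1301 and 1343 CPM in the mutant. It fell as well, with a log2 fold change of −1.63 (SE 0.04, edgeR adjusted p = 5.50e-19).

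The Jon99C genes fell less, apart from Jon99Ci. Jon99Ciii had 3999, 3696 and 3772 CPM in wt and 2220, 2201 and 2220 CPM in the mutant, a log2 fold change of −0.79 (SE 0.04). Jon99Cii had 3289, 3685 and 2936 CPM in wt and 1983, 1865 and 2081 CPM in the mutant, a log2 fold change of −0.74 (SE 0.07). Both genotypes were apart in each gene, though the wt libraries of Jon99Cii were spread more widely, with an SD of 374 CPM against 157 CPM for Jon99Ciii. Jon99Ci, the weakest gene of the cluster, went from 484 to 176 CPM on average, a log2 fold change of −1.46 (SE 0.05).

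On chromosome 3L, yip7, Jon65Aiv, Jon65Aiii, Jon65Aii and Jon65Ai lie within 19228 bases, from 6035216 to 6054443, and their changes ranged from −1.95 to −0.03. Jon65Aii fell from 806, 754 and 719 CPM in wt to 198, 188 and 204 CPM in the mutant, a log2 fold change of −1.95 (SE 0.05, edgeR adjusted p = 1.40e-18). Jon65Aiii fell from 1144, 1033 and 1069 CPM to 352, 332 and 303 CPM, a log2 fold change of −1.72 (SE 0.05). The most abundant gene of this cluster, Jon65Aiv, fell less. Its levels were 1831, 1879 and 1640 CPM in wt and 1092, 1069 and 1071 CPM in the mutant, a log2 fold change of −0.73 (SE 0.04). yip7, a Jonah relative named for its interaction with Yippee, went from 709 to 305 CPM, a log2 fold change of −1.22.

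Jon65Ai, the last gene of that row, did not pass. Its levels were 529, 486 and 474 CPM in wt and 491, 479 and 491 CPM in the mutant, so the genotypes overlapped. The log2 fold change was −0.03, with a 95% interval from −0.12 to 0.06 (adjusted p = 0.609, edgeR). With library totals alone it passed as higher, at 0.37, and with all sequenced reads as lower, at −0.17.

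The Jon25B genes of chromosome 2L, from 4949941 to 4955144, all on the minus strand, hold both the largest fall of the Jonah family and a gene that did not pass. Jon25Bi went from 843, 784 and 702 CPM in wt to 158, 167 and 162 CPM in the mutant, a log2 fold change of −2.26 (SE 0.06, edgeR adjusted p = 1.02e-18), or 4.78-fold. Jon25Bii went from 1354, 1325 and 1143 CPM to 437, 435 and 416 CPM, a log2 fold change of −1.57 (SE 0.05). Both were lower in every mutant library. Jon25Biii had 1154, 1110 and 1007 CPM in wt and 1077, 1041 and 1056 CPM in the mutant, and the genotypes overlapped. Its log2 fold change was −0.04, with a 95% interval from −0.13 to 0.04 (adjusted p = 0.395, edgeR). Without wt replicate 3 it passed as lower, at −0.11, with library totals alone it passed as higher, at 0.35, and with all sequenced reads as lower, at −0.19.

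The remaining Jonah genes lie alone or as a pair. Jon66Ci, at 2857, 2674 and 2515 CPM in wt and 1170, 1147 and 1180 CPM in the mutant, had a log2 fold change of −1.20 (SE 0.04), and its neighbor Jon66Cii on 3L went from 1082 to 352 CPM, at −1.62. Jon74E went from 369 to 115 CPM, at −1.68. Jon44E on 2R moved little, from 1578, 1514 and 1358 CPM in wt to 1175, 1151 and 1163 CPM in the mutant. Its log2 fold change was −0.35 (SE 0.05, edgeR adjusted p = 5.35e-07), and with library totals alone the call was lost, at 0.04.

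The trypsin genes went both ways. Of the 12 genes, 11 passed the filter. Of these 5 were lower (45.5%), 3 were higher and 3 missed the threshold, beside 34.9% lower and 34.8% higher over all genes tested. Their median log2 fold change was −0.56. All but Try29F lie in 1 cluster on 2R, from 11336840 to 11357537, in the order lambdaTry, kappaTry, zetaTry, etaTry, thetaTry, alphaTry, epsilonTry, betaTry, gammaTry, deltaTry and iotaTry, and within these 20698 bases the log2 fold changes of the tested genes ranged from −1.59 to 1.42.

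The most abundant trypsins fell. epsilonTry, the most abundant of them, had 1529, 1520 and 1492 CPM in wt and 521, 479 and 505 CPM in the mutant, a log2 fold change of −1.59 (SE 0.04, edgeR adjusted p = 1.33e-18). betaTry went from 944 to 359 CPM, at −1.40, and thetaTry from 473 to 206 CPM, at −1.20. A pair of weaker genes moved by less than 2-fold, lambdaTry from 84.9 to 47.1 CPM, at −0.85, and zetaTry from 77.4 to 52.4 CPM, at −0.56. The call of zetaTry was lost with library totals alone, at −0.17. kappaTry, which lies 5 bases from lambdaTry, stood at 93.0 ± 5.26 CPM in wt and 87.5 ± 2.10 CPM in the mutant (SD, n = 3) and did not pass. It passed as higher with library totals alone, at 0.31, and as lower with all sequenced reads, at −0.23.

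alphaTry, etaTry and iotaTry rose. alphaTry had 129, 131 and 127 CPM in wt and 265, 261 and 266 CPM in the mutant, a log2 fold change of 1.03 (SE 0.05, edgeR adjusted p = 5.96e-14). Every mutant library was above every wt library by about the same margin. etaTry had 49.5, 49.6 and 55.2 CPM in wt and 93.7, 107 and 108 CPM in the mutant, a log2 fold change of 1.00 (SE 0.08). iotaTry, at the far end of the cluster, had 25.0, 21.5 and 19.5 CPM in wt and 59.3, 56.5 and 60.7 CPM in the mutant, a log2 fold change of 1.42 (SE 0.11). These 3 genes were higher under each of the alternatives tried.

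**Figure D3:**
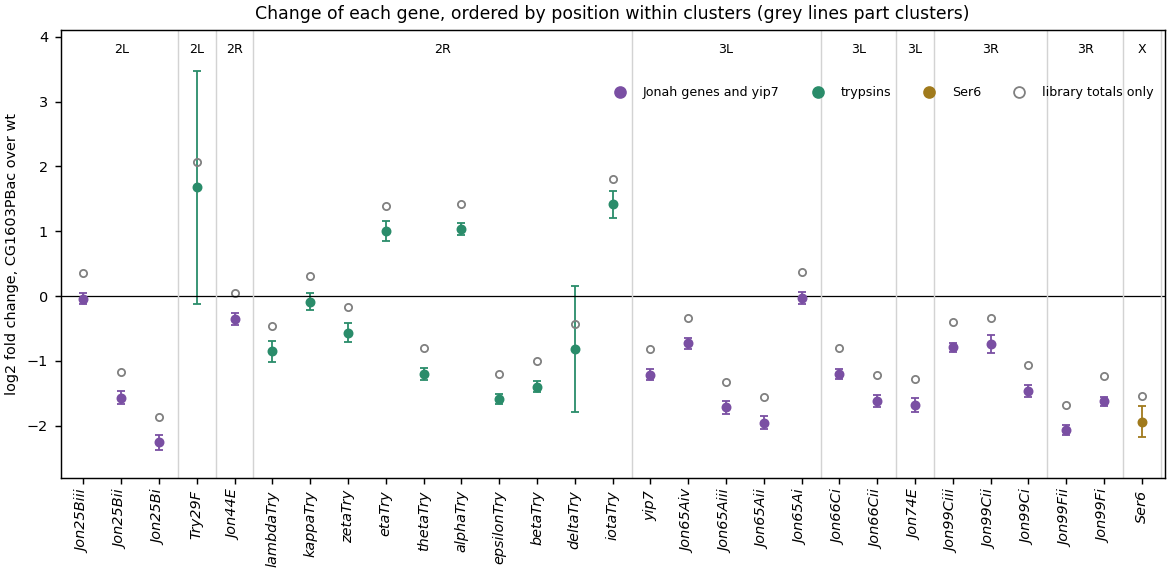
Log2 fold change of CG1603PBac over wt for the 29 tested genes, with 95% intervals, in the order of the genes within their clusters (grey lines part clusters), colored by family. Open grey points are the same values with scaling by library totals alone, which lie higher for every gene. The trypsin cluster holds values from −1.59 to 1.42 and the Jonah clusters values at or below 0.

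The other genes were near the limit of counting. deltaTry had 2.32 ± 0.270 CPM in wt and 1.31 ± 0.217 CPM in the mutant (SD, n = 3). It did not pass (adjusted p = 0.149, edgeR), although its libraries did not overlap. Try29F, a trypsin gene on 2L, had 14, 4 and 3 counts in wt and 17, 29 and 38 counts in the mutant, a log2 fold change of 1.67 (SE 0.92) that did not pass. Without wt replicate 1 it passed, at 2.62, and with library totals alone it passed, at 2.07. gammaTry had 0 counts in all 6 libraries, which allows up to 3 counts in each, or 0.0729 to 0.104 CPM. The gammaTry, deltaTry, CG30025 and CG30031 genes are near-identical copies next to each other, and reads that fit more than 1 of them were set apart by the counting, so their levels are uncertain.

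Ser6 was the only Ser gene with enough counts for a test. It is on the X chromosome, from 20962605 to 20963505. Its levels were 77.3, 61.9 and 69.5 CPM in wt and 19.7, 20.4 and 14.5 CPM in the mutant, a log2 fold change of −1.94 (SE 0.12, edgeR adjusted p = 6.07e-12). Ser7 had 7, 0 and 0 counts in wt and 10, 0 and 5 in the mutant. Ser8 had 6, 0 and 0 counts in wt and 0, 0 and 7 in the mutant, and Ser12 had 1 count in a single wt library.

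The order of the proteases by level per kilobase of exon changed at the top. In wt it ran from Jon99Fii at 4786 CPM per kb, through Jon99Fi at 4398 and Jon99Cii at 3832, to Jon66Ci at 3200 and Jon99Ciii at 3082. In the mutant Jon99Cii was first at 2292, followed by Jon99Ciii at 1785, Jon99Fi at 1425, Jon66Ci at 1391 and Jon25Biii at 1279 CPM per kb, and Jon99Fii had moved to place 7 at 1138. Among these 5 wt genes the libraries of each gene overlapped those of the next in order, and in the mutant those of Jon99Fi and Jon66Ci overlapped. Of the 33 genes, 12 had at least 1000 CPM in wt and 8 in the mutant. Of the 21 genes with at least 100 CPM in wt, 18 were lower. A cut on the wt level favors genes that fall. The share over all genes above that cut was not computed, so nothing is drawn from this count. Across the 29 tested genes the wt level per kb and the log2 fold change had a Spearman correlation of −0.41, given as a description of genes that share libraries and that enter both measures.

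Ratios of neighboring genes within a library do not depend on the scaling. Of 18 pairs of neighbors in the 6 clusters, counting only genes with a mean of at least 20 CPM, the ratio did not overlap between the genotypes in 16 (88.9%), beside 83.5% of 5487 pairs of neighboring genes over the genome. Jon65Aii and Jon65Ai, which lie 277 bases apart, had a ratio of 1.53 ± 0.0183 in wt and 0.403 ± 0.0117 in the mutant (SD, n = 3). Jon25Bi to Jon25Biii, which have Jon25Bii between them and so are not among these pairs, went from 0.712 ± 0.0168 to 0.154 ± 0.00680. In wt Jon65Aii had more counts than Jon65Ai and in the mutant fewer.

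In the trypsin cluster epsilonTry and alphaTry are on the same strand, 117 bases apart. There were 11.7 ± 0.131 counts of epsilonTry for each count of alphaTry in wt and 1.90 ± 0.0671 in the mutant (SD, n = 3). thetaTry to etaTry, 290 bases apart, went from 9.22 ± 0.625 to 2.00 ± 0.169. Other pairs kept closer together. Jon99Fii to Jon99Fi went from 1.07 ± 0.0216 to 0.782 ± 0.0148, and Jon99Cii to Jon99Ciii was 0.866 ± 0.115 in wt and 0.893 ± 0.0450 in the mutant, which overlap. Reads aligned to more than 1 place were not counted, which may affect levels and ratios of genes alike in sequence. How alike these pairs are was not checked.

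**Figure D4:**
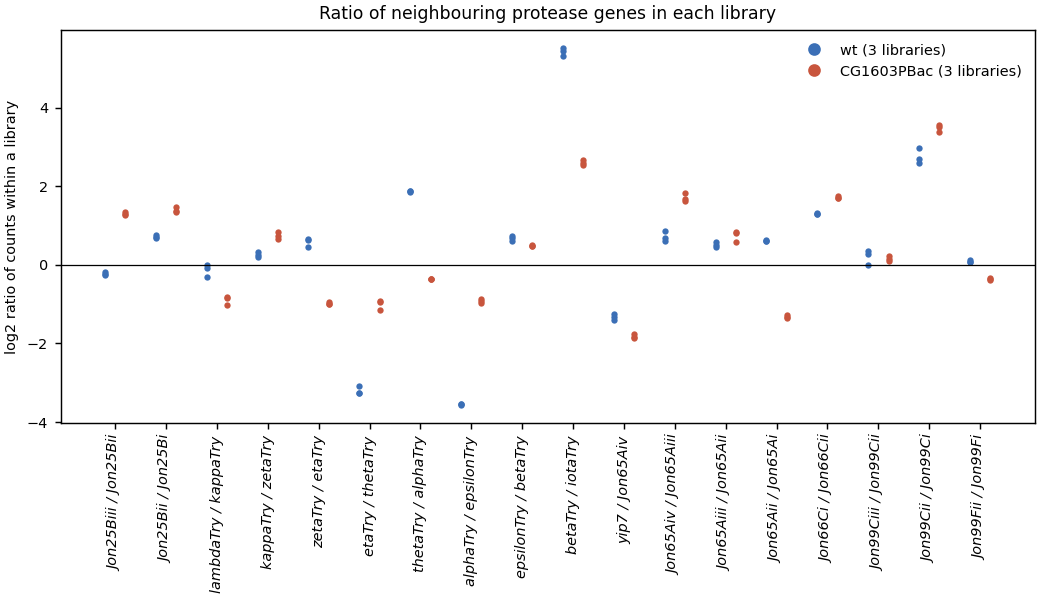
Log2 ratio of the counts of neighboring protease genes within each of the 6 libraries, 1 point per library, for 18 pairs in 6 clusters. The genotypes are apart in 16 pairs, most widely for the trypsin pairs that join a gene that fell and a gene that rose.

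The genes share more than their names. Of the 33 genes, 26 have a single exon in the annotation and 26 lie in 6 clusters with less than 20 kb between neighbors. By chromosome arm, 13 are on 2R, 8 on 3L, 5 on 3R, 5 on 2L and 2 on X. Their exon lengths run from 810 to 1413 bases. Exons of 3 genes overlap another gene, by under 5% of the length in each.

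Enzymes for other parts of the diet were compared from lists written down from textbook knowledge, with earlier results of these data known. The counts of each list stand beside 34.9% lower and 34.8% higher over all genes tested. The lists of other enzymes, inhibitors and regulators together had 33 of 97 tested genes lower (34.0%) and 44 higher. Zinc carboxypeptidases, which take amino acids off the end of the peptides that serine proteases release, fell in 7 of 13 tested genes and rose in 4, with a median log2 fold change of −0.35. Their summed level went from between 2467 and 2663 CPM in wt to between 1069 and 1105 CPM in the mutant. The lowest were CG8562, from 565 to 59.7 CPM, at −3.24, and CG8560, from 517 to 117 CPM, at −2.14. The highest were CG8539, at 1.63, and CG18585, from 78.0 to 183 CPM, at 1.23.

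Of the aspartic and cysteine proteases, which act in acidic compartments of the gut or in lysosomes, 6 of 10 tested genes rose and 3 fell, with a median of 0.32. Bace, an aspartic protease, had 507, 376 and 411 counts in wt and 42561, 48997 and 56447 in the mutant. Its level went from 14.6 to 1365 CPM, a log2 fold change of 6.55 (SE 0.07, edgeR adjusted p = 1.28e-24). CG5863 rose by 1.05 on the log2 scale. CG17134 fell from 511 to 75.6 CPM, at −2.76, and CG6508 had 20, 37 and 46 counts in wt and 0 in all 3 mutant libraries.

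Amylases and maltases, the enzymes that break starch and sugars, rose in 8 of 13 tested genes and fell in 4, with a median of 0.57. Amy-p, an amylase, had 4802, 4625 and 3645 counts in wt and 24861, 29999 and 33185 in the mutant, and its level went from 147 to 812 CPM, at 2.46 (SE 0.08). The maltase-like gene tobi rose from 9.80 to 38.2 CPM, at 1.96. Mal-A8 fell from 27.7 to 4.19 CPM, at −2.74, and Mal-A6 from 34.1 to 19.5 CPM, at −0.80. The paralog Amy-d was at 47.8 and 46.2 CPM, at −0.05, and did not pass.

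The lipases that were listed rose in 4 of 6 genes and fell in 2, with a median of 1.80. Their summed level nonetheless fell, from between 234 and 266 CPM in wt to between 181 and 212 CPM in the mutant. CG6271 rose from 0.280 to 38.7 CPM, at 7.08, and CG6277 from 0.296 to 1.57 CPM, at 2.39, while CG6295 fell from 175 to 10.9 CPM, at −4.01, and CG6283 from 37.5 to 11.3 CPM, at −1.73. Lysozymes, which digest the walls of bacteria eaten with the food, fell in 5 of 6 tested genes, with a median of −3.71. LysB went from 28.9 to 0.590 CPM, at −5.60, and LysD from 5.31 to 0.552 CPM, at −3.27. LysP had 33, 32 and 77 counts in wt and 0 in the mutant libraries, and LysX rose from 0.181 to 11.5 CPM, at 5.97. These genes are close copies of each other, and their reads may be split unevenly.

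Of the 4 peritrophic matrix genes listed, which line the gut lumen, 2 could be tested. Peritrophin-15a fell from 370 to 257 CPM, at −0.52, and Peritrophin-A was at 183 and 169 CPM, at −0.11, and did not pass.

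**Figure D5:**
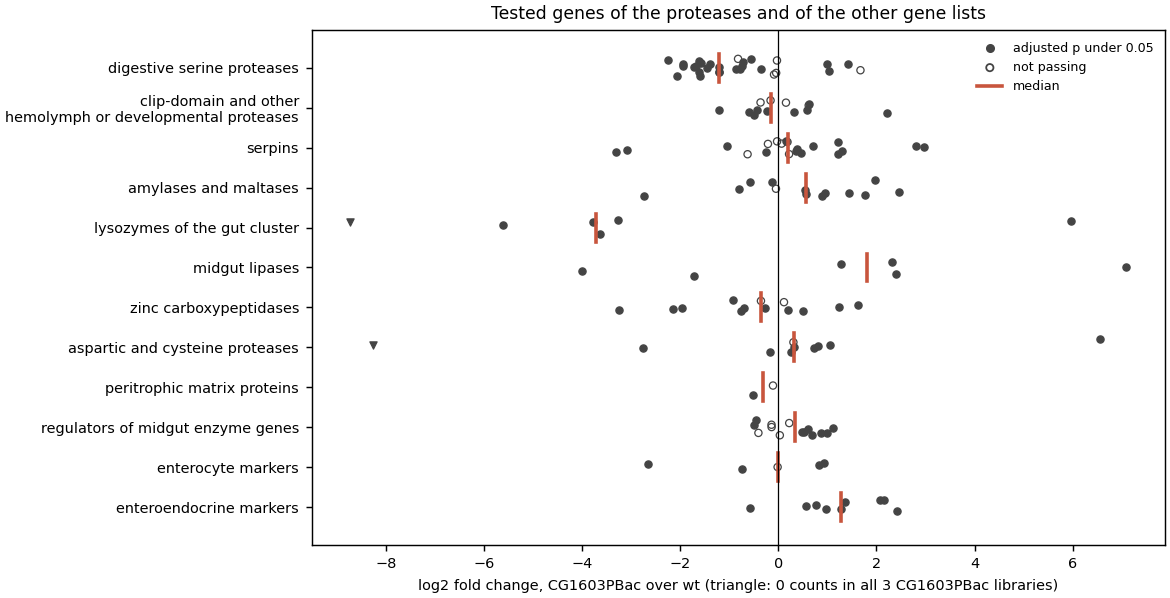
Log2 fold change of CG1603PBac over wt for each tested gene of the proteases and of the lists of other genes, 1 point per gene. Filled points passed an adjusted p of 0.05 in edgeR, triangles mark genes with 0 counts in all 3 CG1603PBac libraries, whose position is set by the fit and is no bound, and red bars are medians. The protease median is −1.20, the lysozyme median −3.71 and the lipase median 1.80. Medians count each gene alike, and the summed level of the lipases was lower in the mutant.

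Serine proteases with roles outside the gut moved both ways. Of 13 tested clip-domain and other proteases of the hemolymph, immunity and development, 5 fell (38.5%) and 4 rose, with a median of −0.16. Over all genes tested 34.9% were lower and 34.8% higher. CG4386 (tpr) fell from 131 to 56.6 CPM, at −1.21, and spirit, of the Toll pathway, from 22.7 to 15.03 CPM, at −0.60. Corin rose from 8.38 to 39.1 CPM, at 2.22, and Sp7, of the melanization cascade, from 28.4 to 43.8 CPM, at 0.63. Serpins, which trap serine proteases, rose in 10 of 20 tested genes and fell in 4, with a median of 0.20. Spn100A fell from 362 to 36.8 CPM, at −3.30, and Spn85F from 17.0 to 2.03 CPM, at −3.08. The highest were low in both genotypes. Spn43Aa rose from 0.0889 to 0.727 CPM, at 2.96 (SE 1.10), and Spn77Bc from 0.227 to 1.60 CPM, at 2.80 (SE 0.80).

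Genes known to regulate digestive enzymes were read from the same fit. Of 14 tested, 7 rose, 2 fell and 5 missed the threshold. Their median was 0.35. bigmax, the partner of Mondo, rose from 31.8 to 68.9 CPM, at 1.12, and foxo, a target of insulin signaling, from 32.2 to 64.2 CPM, at 0.99. The Activin ligand daw rose from 59.6 to 95.9 CPM, at 0.69, its receptor babo by 0.60 and the Smad gene Smox by 0.53 on the log2 scale. GATAe, a GATA factor of the midgut, fell from 51.3 to 36.3 CPM, at −0.50, and Mio (Mondo) from 130 to 95.1 CPM, at −0.45. The sugar-responsive repressor sug, at 79.3 and 72.1 CPM, did not pass.

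Markers of enterocytes were expressed in all libraries. The marker counts stand beside 34.9% lower and 34.8% higher over all genes tested. Of 5 enterocyte markers, 2 rose, 2 fell and 1 did not pass, none was at 0, and their summed level ran from 578 to 589 CPM in wt and from 605 to 625 CPM in the mutant. mex1, a midgut gene, rose from 186 to 331 CPM, at 0.83, and nub from 23.2 to 44.5 CPM, at 0.94. Myo31DF was at 113 and 112 CPM, Myo61F fell from 190 to 114 CPM, at −0.74, and Vha100-4 from 72.0 to 11.4 CPM, at −2.65. Enteroendocrine markers rose in 8 of 9 genes, with a summed level of 205 to 236 CPM in wt and 810 to 825 CPM in the mutant. Most of this sum was IA-2, at 127 to 157 CPM in wt and 635 to 648 CPM in the mutant. CCHa2 fell, from 25.0 to 16.9 CPM. Because the RNA was of whole larvae, the tissue that these counts came from is not known.

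Markers of other tissues moved as well, and their counts stand beside the same shares of 34.9% lower and 34.8% higher. All 6 muscle markers fell, with a median of −1.22 and a summed level of 31406 to 32721 CPM in wt and 12990 to 13291 CPM in the mutant. Fat body markers fell in 3 of 5 tested genes, from 2155 to 2498 CPM in sum to 530 to 578 CPM, with Fbp1 at 0 in all 6 libraries. The summed hemocyte markers went from 175 to 183 CPM to 222 to 240 CPM, those of Malpighian tubules from 364 to 395 CPM to 407 to 409 CPM, and those of the hindgut and foregut from 125 to 139 CPM to 137 to 141 CPM. Salivary markers went from 41.9 to 48.7 CPM to 51.2 to 56.6 CPM, with Sgs3 and Sgs5 at 0, and midgut precursor markers from 20.9 to 24.1 CPM to 27.4 to 34.0 CPM. The part of these tissues in the change of the proteases was not tested.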

How the data were processed

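Poly(A) RNA from larvae was sequenced by the authors as paired reads, checked with FastQC, aligned to dm6 with STAR and counted per gene with HTSeq, per the labels and the methods of the study. Each deposited file holds whole-number counts by the authors for 16727 genes of 1 library, without normalization. The annotation version and the strand setting of the counting are not given in the sources used here. Rows that name no gene entered neither library sizes nor tests. They are reads without a feature (2.63 ± 0.198% of aligned reads in wt, 5.57 ± 0.278% in the mutant), reads aligned to more than 1 place (5.66 ± 0.204% and 9.93 ± 0.0717%) and ambiguous reads (2.07 ± 0.00990% and 2.02 ± 0.0159%; SD, n = 3), beside those not aligned. Between 27100927 and 36016914 counts fell in genes in each library. Replicates differed by more than sampling noise (chi-square of 7.46 to 17.0 per gene), so no library was counted as a second deposit of another. That they are biological replicates rests on the labels. P-values measure the spread between these libraries.

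Counts were scaled by TMM and compared with edgeR 4.0.16 in R 4.3.3 by the robust quasi-likelihood F test on genotype alone, after filterByExpr (minimum count 10, minimum total 15). Adjusted p-values (Benjamini-Hochberg) are over all 11306 genes that passed, and the threshold was 0.05. A standard error is the log2 fold change divided by the root of F. Symbols were matched to the Ensembl annotation in dm6 coordinates (16521 of 16727). The steps were tested on simulated counts in which few genes changed, some up and some down. That setting does not test the scaling where most genes differ, as they did here.

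The genes and lists were chosen with earlier results of these data known. Every protease is named, with values per library for the 10 most abundant and the 5 largest rises and falls that passed (3 rises did), and the 2 highest and 2 lowest of each list of other enzymes, inhibitors and regulators. Alternatives were DESeq2 1.42.0, its size factors in edgeR, limma-voom (limma 3.58.1), library totals alone, no filter, at least 10 counts in every library, a replicate block, removal of the trend on exon length, each library left out and, chosen after seeing the data, all sequenced reads as library size. Protein and promoter sequences were not used here, so serine proteases picked by sequence were not analysed.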

Additional observations from a re-analysis of the deposited data

How the results depend on the processing

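Under library totals alone 7 proteases were higher and their median log2 fold change was −0.81. The median was −1.02 without a filter and −1.04 with the trend on exon length removed, where 5 were higher. The number lower stayed within 1.5 times of 21 under each alternative, from 19 with library totals to 24 with all sequenced reads. Leaving out 1 library gave 21 to 22 lower, 3 to 4 higher and medians from −1.22 to −1.16. Without Jon99Ciii, which had the most counts over the 6 libraries, the share of gene counts was 2.56% in wt and 1.497% in CG1603PBac larvae. For all 33 genes the ratio of wt to CG1603PBac was 2.17 by summed CPM in place of 1.65 by share.

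Changes of sign were seen in genes near 0. With library totals alone Jon25Biii was at 0.35, Jon44E at 0.0438, Jon65Ai at 0.37 and kappaTry at 0.31, and all but Jon44E passed as higher. With the length trend removed Jon25Biii was at 0.11, Jon65Ai at 0.13 (both passed as higher) and kappaTry at 0.0689, and with the replicate block as well at 0.0655, 0.0827 and 0.0250. Jon65Ai was at 0.0101 with at least 10 counts in every library, and from −0.0742 to 0.0170 with 1 library left out (the highest without wt replicate 1). With all sequenced reads as library size, Jon25Biii at −0.19, Jon65Ai at −0.17 and kappaTry at −0.23 passed as lower. The cause was not tested.

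Library totals moved the share of higher genes among all calls from 49.9% to 68.7%. Same-numbered libraries did not deviate together (correlations of 0.0057, −0.020 and −0.0084). These values cannot show whether such libraries shared a preparation or a sequencing run. With the replicate block 21 proteases were lower and 3 higher, and 7741 of all genes differed in place of 7882. The lists of other enzymes, inhibitors and regulators together gave 39 to 58 higher and 22 to 38 lower. Alternatives for serine proteases picked by sequence were not run. Reads of near-identical trypsins and lysozymes limit those genes, and levels under about 0.1 CPM could not be told from 0. The same limit may hold for close copies among the Jonah and amylase genes, whose likeness in sequence was not checked here.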

Other observations

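Genes next to the proteases were looked at as well. Of 75 other tested protein-coding genes within 20 kb of a protease, 29 were lower (38.7%) and 22 higher, with a median log2 fold change of −0.03. Over all genes tested 34.9% were lower and 34.8% higher, so the neighbors were near the background. The genes named next are examples of falls. CG10472, beside the Jon65A genes, had 19333, 19469 and 16838 counts in wt and 8254, 9690 and 11245 in CG1603PBac libraries, and its level fell from 627 to 269 CPM, at −1.22. CG1304, beside Ser6, fell from 96.0 to 37.6 CPM, at −1.35. CG30025, one of the near-identical trypsin copies, had 189, 112 and 128 counts in wt and 17, 13 and 14 in the mutant, at −3.54, with the uncertainty of reads that fit more than 1 copy.

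Phae1 and Phae2, a pair of serine protease genes of the phaedra locus that were chosen after their values were seen, were higher in CG1603PBac larvae. Phae1 stood at 49.5 ± 1.05 CPM in wt and 96.2 ± 4.93 CPM in the mutant (SD, n = 3), a log2 fold change of 0.96, and Phae2 at 44.6 ± 1.01 and 77.4 ± 3.51 CPM, at 0.79. No cause was tested for either.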
